A study of Homo sapiens with 105 samples.

Results

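C134W FOXL2 was compared with wild-type FOXL2 in HGrC1 cells stimulated with TGF, across all 12784 genes whose mean normalized count over the 6 libraries reached 10, out of 26330 gene symbols in the authors' deposited table and 19179 with at least some reads. HGrC1 is a human non-tumour granulosa cell line. The tested cells were transduced with C134W mutant FOXL2 and given TGF, and they are called C134W here. The cells they were set against carried wild-type FOXL2 with TGF (WT), and cells with an empty vector and TGF (EV) stand beside both. C134W, WT and EV cells without TGF were also sequenced. Each of these 6 groups had 3 RNA libraries, so 18 of the series' 27 RNA libraries are used. All cells were grown in Ham medium with serum. The dose and duration of TGF, and whether a transduced line was 1 clone or a pool, are not stated in the labels read here. Those labels number the replicates without saying whether separate cultures were used, so a p-value covers the spread among the libraries at hand, which may be technical.

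FOXL2 is a forkhead transcription factor that maintains the identity of ovarian granulosa cells, the cells that surround the oocyte and make oestrogen through the aromatase CYP19A1. The C134W substitution lies in its DNA-binding domain and is carried by nearly all adult granulosa cell tumours. TGF-beta ligands act through receptor kinases that activate SMAD2 and SMAD3, which bind DNA with SMAD4 and partner factors. The genes are described here across functions other than the TGF-beta, YAP and p53 programmes.

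FOXL2 RNA itself was present in both transduced lines. Its implied level was 843 normalized counts in C134W cells, 1021 in WT cells and 8.31 in EV cells, and its log2 change of C134W over WT was -0.27 ± 0.10 in the authors' deposited table (± is the deposited standard error throughout, adjusted p = 0.0339). An implied level is a group mean computed from the deposited mean and fold change after undoing the moderation of the fold change, and it has no spread of its own. EV values were put on the scale of the WT table through the C134W libraries that both tables share. The cells expressed the granulosa and mesenchymal markers GATA4 (implied levels of 1157 in C134W, 1038 in WT and 1074 in EV cells), VIM and CDH2. Defining granulosa receptors and regulators were at or near 0, with deposited means of 0.244 for FSHR, 0.457 for AMHR2, 0.615 for NR5A1 and 0.739 for NR5A2 in the authors' deposited table. Of the fixed markers of other cells, none of 5 endothelial and 1 of 5 immune markers reached a mean of 10, with PECAM1 at 0.626 and PTPRC at 2.45 in the authors' deposited table. Of Sertoli, theca and oocyte markers, 2 of 5, 1 of 7 and 2 of 4 reached it, with the Sertoli marker CLDN11 at a mean of 1063. Of the 2 Sertoli markers tested 1 was higher and 1 lower in C134W. Markers of ovarian surface epithelium or mesothelium were present, with 5 of 6 tested, 0 higher and 4 lower in C134W. They were CALB2 at -1.42 ± 0.12, MSLN at -0.76 ± 0.23, WT1 at -0.68 ± 0.19 and KRT19 at -0.48 ± 0.09 in the authors' deposited table. The summed implied level of 3 of the markers was 1191 in C134W, 1895 in WT and 3732 in EV. All 4 fibroblast markers were tested, 2 of them higher and 0 lower, and 2 summed to 82590 in C134W, 65920 in WT and 119400 in EV, nearly all of it COL1A1. The part of such cells or states in the results was not tested.

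The deposited tables hold no column per library, but genes of low mean could be decoded into whole reads per library, which gives replicate values for 159 of 160 named genes with a mean up to 180. Libraries are numbered within a group by depth and not by the labels' replicate numbers. The decoded scale puts the libraries at about 19650000, 11290000 and 9040000 reads for C134W, 12530000, 9840000 and 5490000 for WT, and 15880000, 9760000 and 9130000 for EV. WT libraries 2 and 3 stood apart from WT library 1 in replication-dependent histone RNAs and in RN7SL2, as described with those genes. For 1731 other low genes this was not seen: 16 of them (0.924%) were over double in both WT libraries 2 and 3 relative to WT library 1. In bulk RNA, fewer cells expressing a gene and less RNA per cell cannot be told apart.

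Across the 12781 members with an adjusted p, 4899 (38.3%) passed an adjusted p of 0.05 in the authors' deposited table, 2431 of them (19.0%) higher in C134W and 2468 (19.3%) lower. Most changes were small. The median log2 change over all genes tested was -0.002, and 58.5% of the called genes lay within 0.5 of 0. Larger changes leaned to the higher side, with 327 genes higher and 188 lower by over 1 log2 unit, and 58 higher and 9 lower by over 2. With the group sums set equal in place of the authors' size factors, the 4928 calls split into 3161 higher and 1767 lower, since the summed level in C134W was 0.951 of that in WT. Genes just inside the lower limit on the mean were LOC401127, SNORA61 and HOXC5 at 10.0, 10.01 and 10.01 in the authors' deposited table, and those just outside were SPAG4, ROM1 and ZNF223 at 9.998, 9.996 and 9.986.

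**Figure D1:**
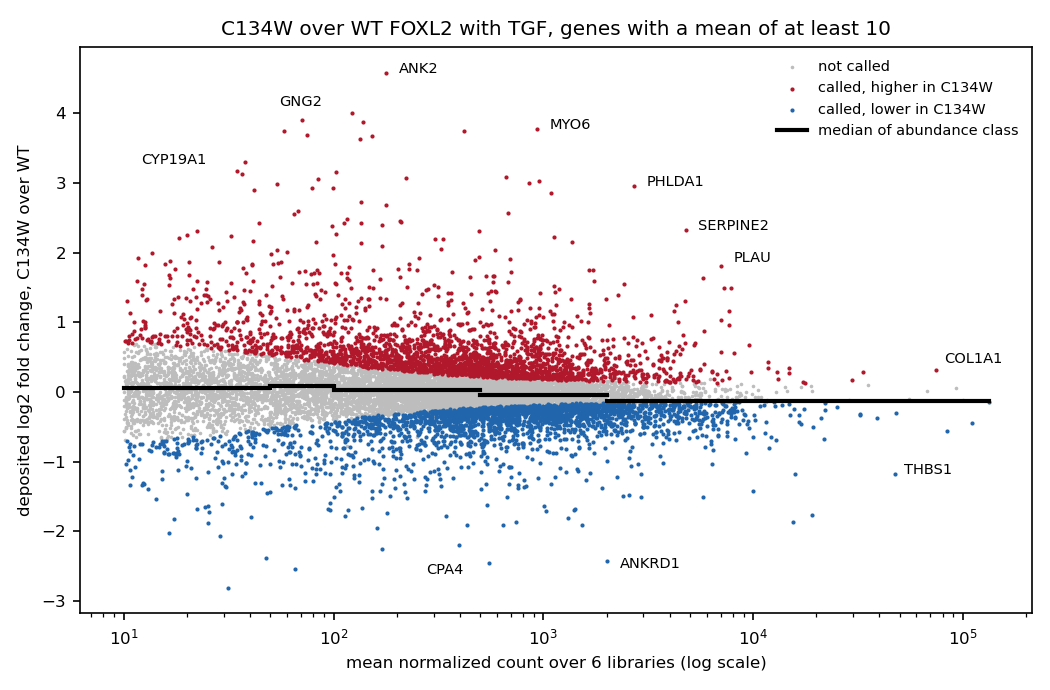
Log2 change of C134W over WT with TGF (vertical axis, as deposited) against the mean normalized count over the 6 libraries (horizontal log axis), 1 point a gene. Red and blue points are the 2431 genes called higher and the 2468 called lower in C134W, grey points were not called, and the black bars give the median of each abundance class, which lies above 0 under a mean of 500 and below 0 above it.

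The direction of change depended on abundance. The median log2 change was 0.06 for the 2085 genes with a mean of 10 to 50, 0.08 for 50 to 100, 0.03 for 100 to 500, -0.04 for 500 to 2000 and -0.13 for the 992 genes above 2000. In that most abundant class 45.6% of genes were lower in C134W and 18.2% were higher. Gene length was a weaker axis: among the longest genes, the top quintile of length, 25.7% were higher and 19.0% lower, while in the bottom quintile 14.5% were higher and 17.1% lower. The lean of long genes to the higher side was also seen within a mean of 100 to 500, where 29.1% of the top quintile and 16.4% of the bottom one were higher. Counts for gene lists are read beside these shares, because lists differ in abundance and length.

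Steroid enzyme and hormone genes of granulosa cells went both ways, and CYP19A1 was detected almost only in C134W cells with TGF. CYP19A1, the aromatase, had 128, 65 and 69 reads in the 3 C134W libraries, 0, 0 and 0 in WT and 0, 0 and 0 in EV. Taking 3 reads as the most that a count of 0 over the WT libraries together allows, it was at least 60.9-fold higher in C134W, with a log2 change of 3.17 ± 0.28 in the authors' deposited table (adjusted p = 1.89e-27). Without TGF the same gene had 1, 1 and 0 reads in C134W libraries, 0, 2 and 0 in WT and 0, 0 and 0 in EV, so that its reads stood above these values in C134W cells with TGF and in none of the other 5 groups. AMH, the anti-Müllerian hormone, had 73.6, 56.6 and 67.2 normalized reads in C134W, 21.7, 22.4 and 22.9 in WT and 17.3, 26.0 and 27.8 in EV. No C134W library overlapped WT or EV for AMH, and the 3 C134W libraries without TGF had 63.3, 56.6 and 40.7, against 24.2, 22.1 and 19.7 in WT without TGF. HSD17B1, which converts oestrone to oestradiol, had 188, 178 and 154 normalized reads in C134W, 110, 102 and 97.3 in WT and 111, 101 and 109 in EV. ESR2, oestrogen receptor beta, was below the limit on the mean, with 13.3, 12.1 and 9.27 normalized reads in C134W and 2.51, 2.13 and 1.91 in WT. INHBB, an activin and inhibin subunit, ran the other way at 21.3, 15.8 and 15.1 in C134W, 40.1, 42.6 and 53.5 in WT and 65.3, 68.7 and 64.6 in EV, and KITLG, the KIT ligand that granulosa cells give to the oocyte, had implied levels of 130 in C134W, 255 in WT and 312 in EV. Of the 13 fixed granulosa markers tested, 4 were higher and 7 lower in C134W.

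The 20 genes with the highest log2 changes and a mean over 100 ran between 2.45 and 4.58 in the authors' deposited table. ANK2, the membrane adaptor ankyrin-B, had 354, 335 and 367 normalized reads in C134W, 6.69, 5.33 and 3.82 in WT and 1.28, 2.08 and 4.46 in EV. That is 352 ± 16.1 in C134W against 5.28 ± 1.44 in WT (SD, n = 3 libraries each), a 66.8-fold difference, and a moderated log2 change of 4.58 ± 0.22 in the authors' deposited table. GRIN2A, a subunit of the NMDA glutamate receptor, had 203, 186 and 188 in C134W, 12.5, 19.2 and 5.73 in WT and 28.2, 17.7 and 29.0 in EV. GAD1, the enzyme that makes GABA, had 218, 196 and 195 in C134W, 25.1, 30.9 and 32.5 in WT and 13.4, 9.37 and 6.68 in EV. In all of these the C134W libraries lay clear of both other lines. DCLK1, a doublecortin-like microtubule kinase with a mean under 100, had 158, 165 and 152 in C134W, 11.7, 12.8 and 7.64 in WT and 60.8, 57.3 and 57.9 in EV, so that WT lay lowest.

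Several of the strongest genes act just below receptors. GNG2, a gamma subunit of heterotrimeric G proteins, had 254, 219 and 243 normalized reads in C134W, 7.53, 5.33 and 5.73 in WT and 0.64, 3.12 and 1.11 in EV, 38.6-fold higher in C134W than in WT. RASGRF2, an exchange factor that activates Ras and Rac, had 306, 263 and 305 in C134W, 15.9, 12.8 and 13.4 in WT and 5.12, 4.17 and 4.46 in EV. DGKI, a diacylglycerol kinase, had 315, 349 and 278 in C134W, 36.8, 47.9 and 36.3 in WT and 1.92, 2.08 and 1.11 in EV. The order C134W, WT, EV held for all libraries of these signalling genes. CHN1, the Rac GTPase-activating chimaerin, had implied levels of 1925 in C134W, 254 in WT and 150 in EV.

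The strongest genes also included secreted and cell-surface products. ANGPTL2, a secreted angiopoietin-like factor, had 228, 265 and 232 normalized reads in C134W, 28.4, 28.8 and 28.6 in WT and 3.20, 1.04 and 4.46 in EV. TNFSF4, the OX40 ligand that co-stimulates T cells, had implied levels of 1194 in C134W, 130 in WT and 10.7 in EV, and PVRL1, the adhesion protein nectin-1, had 1167, 186 and 101. CD24, a small membrane-anchored glycoprotein, had 405 in C134W, 40.2 in WT and 218 in EV. MOXD1, a DBH-like monooxygenase, had 246, 256 and 301 normalized reads in C134W, 8.36, 9.58 and 11.4 in WT and 85.8, 71.8 and 85.8 in EV, and the long noncoding RNA LINC01133 had 249, 252 and 258 in C134W, 6.69, 12.8 and 21.0 in WT and 26.9, 32.3 and 21.2 in EV. For CD24, MOXD1 and LINC01133 the wild-type line lay lowest and the mutant highest. CHST1, a Golgi sulfotransferase acting on keratan sulfate, had 182, 213 and 155 in C134W, 22.6, 9.58 and 11.4 in WT and 7.04, 4.17 and 7.80 in EV.

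**Figure D2:**
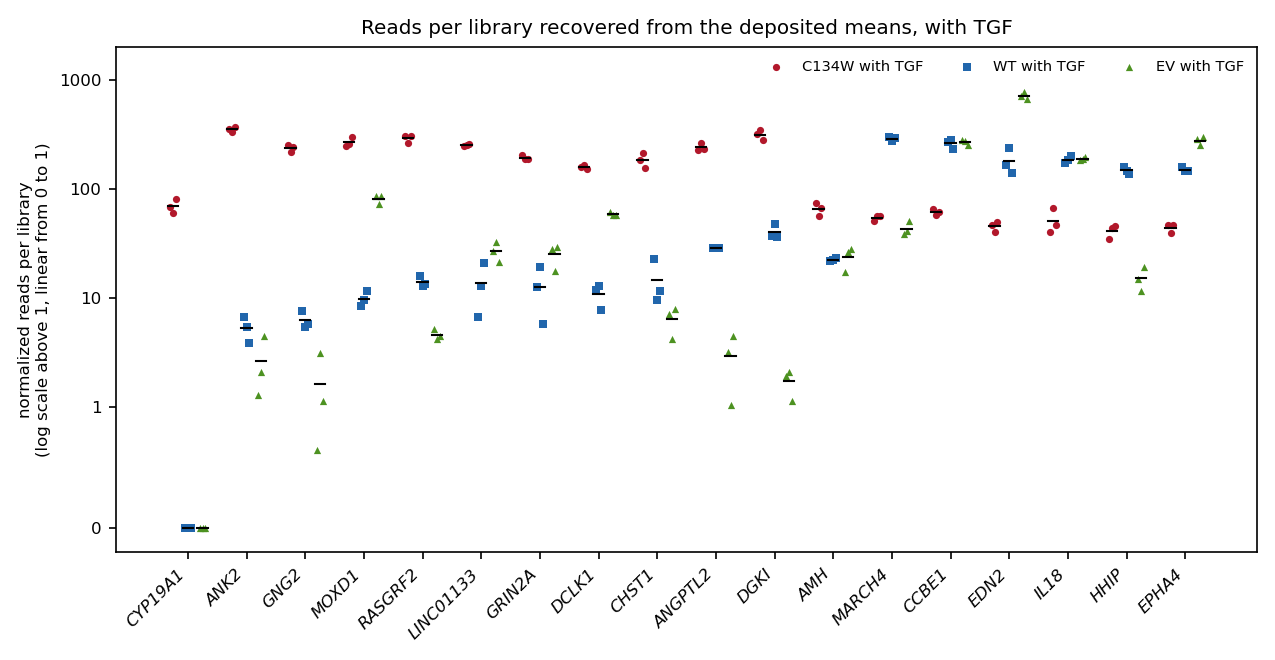
Normalized reads decoded for each library with TGF (vertical axis, log scale above 1 and linear from 0 to 1) for 18 named genes, with red circles for C134W, blue squares for WT and green triangles for EV, and bars at the mean of 3 libraries. The C134W libraries lie apart from the WT libraries in every gene shown, and CYP19A1 is at 0 in all WT and EV libraries.

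Among abundant genes, with a mean of at least 2000, the highest were PHLDA1, an immediate early gene with a pleckstrin homology-like domain, at implied levels of 4785 in C134W, 596 in WT and 229 in EV, and 2 genes of the plasminogen system. SERPINE2, the protease inhibitor nexin-1, had 7964 in C134W, 1565 in WT and 108 in EV, and PLAU, the urokinase plasminogen activator, had 10920, 3073 and 740. Matrix and adhesion genes were split. COL12A1 had implied levels of 10750 in C134W and 3770 in WT, FRAS1, a basement membrane protein, 8778 and 2784, and the collagen-binding integrin ITGA1 6770 and 2700. CYP24A1, the enzyme that inactivates vitamin D, was at 3293 in C134W and 1240 in WT. THBS1, the matrix glycoprotein thrombospondin 1, was at 29060 in C134W, 66140 in WT and 16610 in EV, and the matricellular SPARC at 16760 in C134W, 26900 in WT and 32660 in EV. The secreted protease HTRA1 was at 9504 in C134W, 4597 in WT and 19.2 in EV.

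The 20 lowest genes with a mean of at least 100 ran between -2.46 and -1.67 in the authors' deposited table, and a recurrent pattern was a WT level above both other lines. MARCH4, a membrane-bound ubiquitin ligase, had 50.7, 56.6 and 55.6 normalized reads in C134W, 296, 274 and 294 in WT and 38.4, 40.6 and 50.1 in EV. ANKRD1, a cardiac ankyrin repeat protein, had implied levels of 620 in C134W, 3400 in WT and 662 in EV. EDN1, the vasoconstrictor endothelin 1, had 475 in C134W, 1585 in WT and 479 in EV. DUSP1, a phosphatase of MAP kinases, lay outside these 20 at -1.48 ± 0.07 in the authors' deposited table. Its implied levels had the same pattern, at 1341 in C134W, 3804 in WT and 1307 in EV. MGLL, the monoacylglycerol lipase, had 61.3, 64.1 and 55.6 normalized reads in C134W, 211, 200 and 227 in WT and 62.1, 57.3 and 78.0 in EV. Of these 20 genes, 13 were also called lower in C134W than in EV and 3 were called higher than in EV (SFRP4, COL8A1 and PTX3), in a comparison that shares the C134W libraries.

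A second pattern was a C134W level below both others. EDN2, endothelin 2, had 46.4, 39.9 and 49.8 normalized reads in C134W, 165, 238 and 139 in WT and 703, 766 and 668 in EV. CCBE1, a secreted factor needed for lymphatic vessel growth, had 65.1, 57.6 and 61.4 in C134W, 269, 281 and 233 in WT and 280, 276 and 254 in EV. The cytokine IL18 had 40, 65.9 and 46.4 in C134W, 174, 182 and 199 in WT and 185, 186 and 196 in EV. GFRA1, the receptor for the neurotrophic factor GDNF, had implied levels of 634 in C134W, 2435 in WT and 4491 in EV, and the growth factor HBEGF, a ligand of the EGF receptor, 263, 1025 and 444. The Wnt antagonist DKK1 was at 572 in C134W, 2050 in WT and 1010 in EV. None of the C134W libraries of EDN2, CCBE1 or IL18 reached a WT or EV library.

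Gene lists covering 72 functions were then counted, each set beside the shares over all genes tested, 19.0% higher and 19.3% lower. The lists were drawn up with earlier results of these data known, and no test was made over a list.

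**Figure D3:**
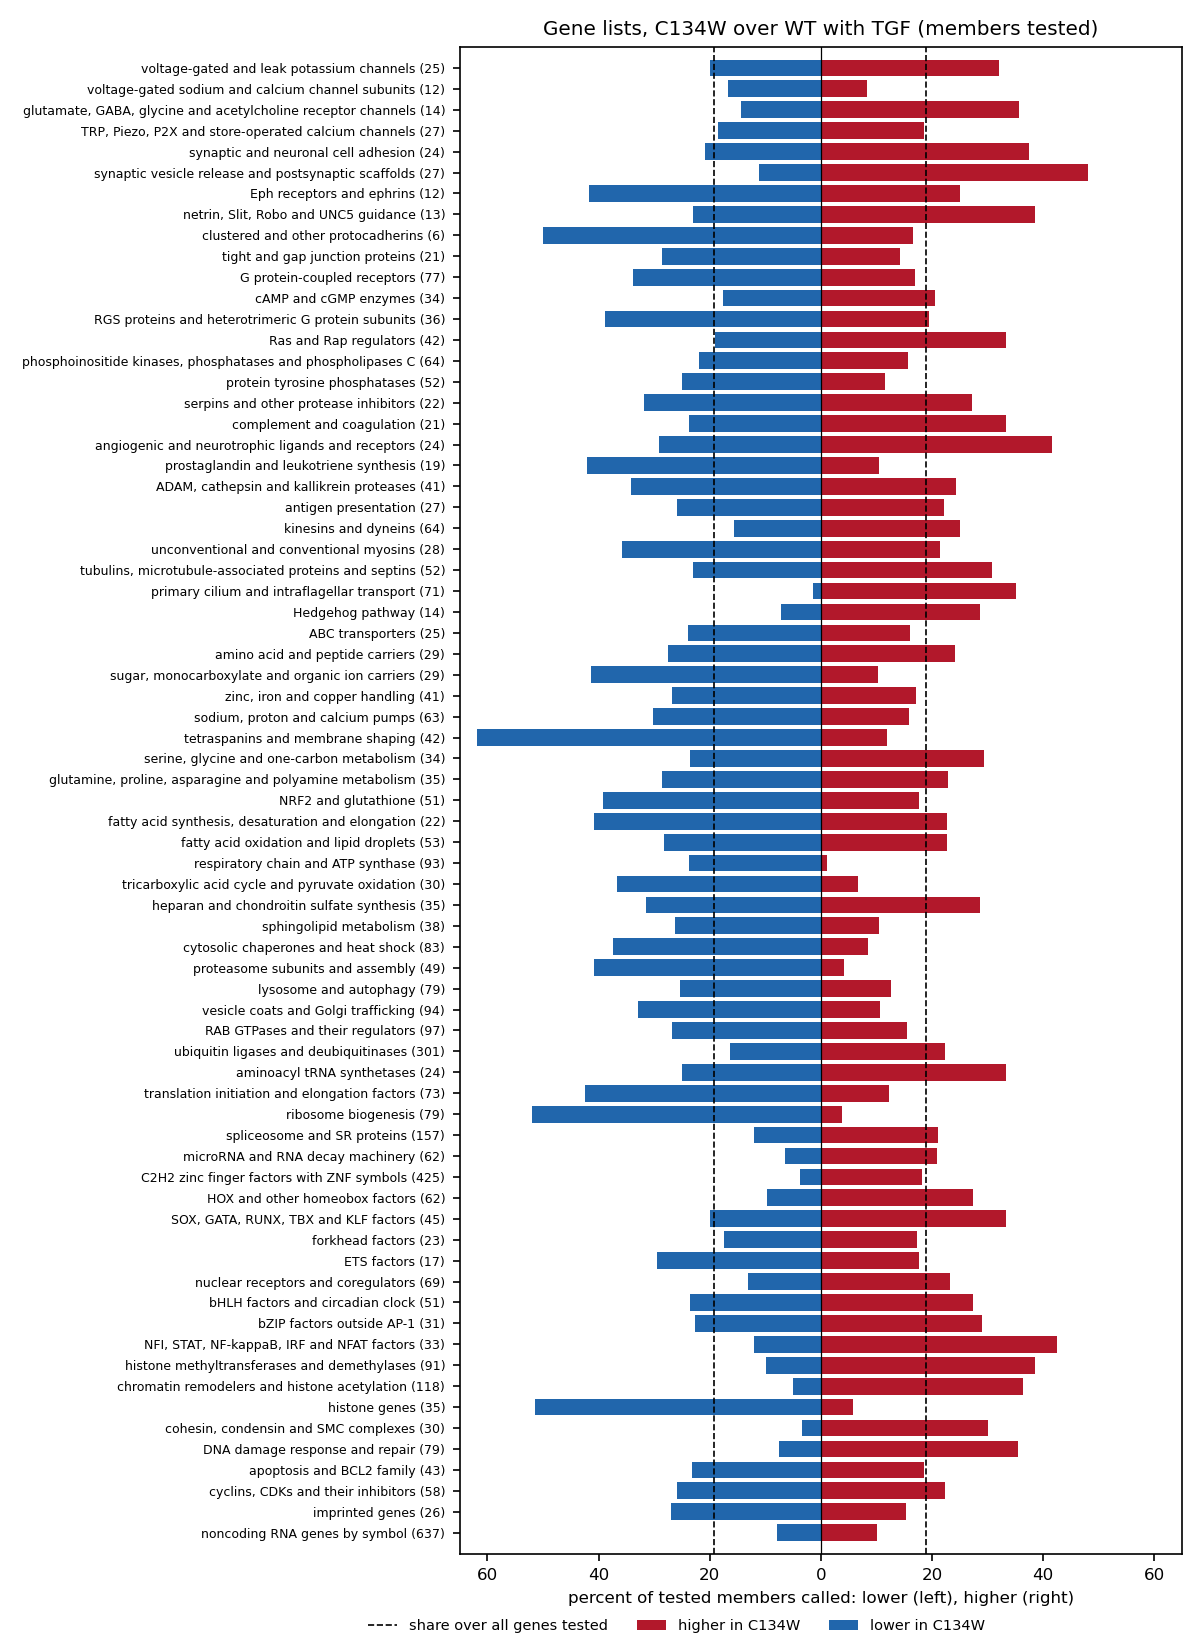
Percent of the tested members of each of 71 gene lists called lower (blue, to the left) and higher (red, to the right) in C134W than in WT with TGF, with the number tested in brackets. Dashed lines mark the shares over all genes tested, 19.3% lower and 19.0% higher.

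Synaptic and axon guidance genes moved in both directions. Of 27 tested genes for synaptic vesicle release and postsynaptic scaffolds, 13 were higher and 3 lower, with a median log2 change of 0.27. They included EPB41L1, a cytoskeletal anchor of glutamate receptors, at 2.23 ± 0.08, and the scaffold HOMER1 at 0.80 ± 0.11, while the vesicle GTPase RAB3B was at -0.75 ± 0.09 in the authors' deposited table. Of 24 synaptic and neuronal adhesion genes, 9 were higher and 5 lower (median 0.29): the FLRT3 and FLRT2 adhesion proteins were at 1.22 ± 0.16 and 0.94 ± 0.09, and NEGR1 and neurexin NRXN3 at -1.38 ± 0.09 and -1.33 ± 0.13 in the authors' deposited table. Among Eph receptors and ephrins 3 of 12 were higher and 5 lower. EPHA4 had 46.4, 39.0 and 46.4 normalized reads in C134W, 157, 145 and 145 in WT and 284, 250 and 296 in EV, and its ephrin ligand EFNB2 changed by -1.31 ± 0.09 in the authors' deposited table. In the netrin, Slit and Robo list 5 of 13 were higher and 3 lower. There the receptor ROBO1 was at 1.52 ± 0.08 in the authors' deposited table, while its ligand SLIT3 had 73.1, 65.9 and 52.1 normalized reads in C134W, 172, 163 and 130 in WT and 872, 874 and 823 in EV. For both EPHA4 and SLIT3 the 3 lines did not overlap and EV lay highest.

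Ion channels and receptors moved in both directions, and not all of their lists exceeded the 38.3% of all genes that were called. Of voltage-gated sodium and calcium channel subunits 1 of 12 was higher and 2 were lower. Of TRP, Piezo, P2X and store-operated calcium channels 5 of 27 were higher and 5 lower. The other lists given here had a larger share called than all genes. In the list of glutamate, GABA, glycine and acetylcholine receptor channels 5 of 14 were higher and 2 lower, among them GRIN2A and the nicotinic subunit CHRNA9, at implied levels of 318 in C134W, 94.6 in WT and 4.13 in EV. For potassium channels 8 of 25 were higher and 5 lower, with the calcium-activated channel KCNMA1 at -1.18 ± 0.11 and KCNQ5 at -1.07 ± 0.22 in the authors' deposited table. G protein-coupled receptors leaned lower, with 13 of 77 higher and 26 lower. The prostaglandin E2 receptor PTGER2 was at implied levels of 554 in C134W, 113 in WT and 5.26 in EV. The receptor LGR4 and the sphingosine receptor S1PR1 changed by 1.12 ± 0.08 and 0.95 ± 0.10 in the authors' deposited table. The oxytocin receptor OXTR changed by -1.63 ± 0.07 and the orphan receptor GPRC5A by -1.09 ± 0.07 in the authors' deposited table. Of regulators of G protein signalling and G protein subunits, 7 of 36 were higher, led by GNG2, and 14 were lower.

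Chromatin and nuclear genes were more often higher than lower. Of 118 chromatin remodelers and histone acetylation genes, 43 (36.4%) were higher and 6 (5.08%) lower, with a median of 0.14. Of 91 histone methyltransferases and demethylases, 35 were higher and 9 lower (median 0.12). PRDM8, a PR domain protein, stood out at implied levels of 1525 in C134W, 180 in WT and 32.9 in EV, and the H3K27 demethylase KDM6B was at 1.18 ± 0.10 in the authors' deposited table. The Polycomb gene CBX2 changed by 1.14 ± 0.10 in the authors' deposited table, and the 5-methylcytosine oxidase TET1 had 190, 154 and 217 normalized reads in C134W, 104, 107 and 97.4 in WT and 149, 154 and 129 in EV. DNA damage response and repair genes showed 28 of 79 higher and 6 lower (median 0.12), including XPC and DDB2 of nucleotide excision repair at 0.64 ± 0.10 and 0.58 ± 0.10, while the end-joining factor NHEJ1 was at -0.70 ± 0.13 in the authors' deposited table. Cohesin, condensin and SMC genes showed 9 of 30 higher and 1 lower. Over all genes against EV, 25.6% were higher in C134W and 23.1% lower. Of the repair genes 9 of 79 (11.4%) were higher there, under that share, and 21 (26.6%) lower, near it. Cohesin, condensin and SMC genes had 3 of 30 (10%) higher and 11 (36.7%) lower. Histone methylation genes were near both shares, with 22 of 92 (23.9%) higher and 24 (26.1%) lower. Chromatin remodelers still had more higher members, with 42 of 120 (35%) higher and 24 (20%) lower.

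Zinc finger factors with ZNF symbols had 77 of 425 higher (18.1%, near the share of all genes) and 16 lower (3.76%, under it), with a median of 0.12. They are mostly genes of low abundance, whose median over all genes was also above 0. ZNF720 had 154, 166 and 175 normalized reads in C134W, 58.5, 46.9 and 76.4 in WT and 72.3, 73.9 and 63.5 in EV. Against EV 61 of 437 ZNF genes (13.96%) were higher and 122 (27.9%) lower in C134W, beside 25.6% and 23.1% of all genes.

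Genes of the primary cilium and intraflagellar transport, the antenna-like organelle that carries Hedgehog signalling, were 25 of 71 higher (35.2%) and 1 lower, with a median of 0.19. DYNC2LI1, a light chain of the dynein that moves cargo back along the cilium, had 193, 205 and 194 normalized reads in C134W, 101, 128 and 113 in WT and 193, 177 and 176 in EV. CEP290, at the ciliary transition zone, changed by 0.64 ± 0.14 in the authors' deposited table. Against EV the cilium genes leaned the other way, with 5 of 71 (7.04%) higher and 25 (35.2%) lower, beside 25.6% and 23.1% of all genes. The summed implied level of the list was 16280 in C134W, 14260 in WT and 18990 in EV. In the Hedgehog pathway 4 of 14 were higher and 1 was lower. SMO, its signal-transducing receptor, had 195, 211 and 216 normalized reads in C134W, 97.8, 112 and 99.3 in WT and 77.4, 57.3 and 72.4 in EV. HHIP, which binds and blocks Hedgehog ligands, was the one lower gene, at 34.7, 43.6 and 45.2 in C134W, 158, 147 and 137 in WT and 14.7, 11.5 and 18.9 in EV.

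Transcription factors changed gene by gene. Of the NFI, STAT, NF-kappaB, IRF and NFAT factors, 14 of 33 were higher and 4 lower (median 0.18), with STAT5A at 91.2, 98.4 and 91.5 normalized reads in C134W, 37.6, 43.7 and 24.8 in WT and 24.3, 31.2 and 24.5 in EV. Of homeobox factors, 17 of 62 were higher and 6 lower, among them POU2F2 at 188, 171 and 192 in C134W, 44.3, 60.7 and 40.1 in WT and 19.8, 24.0 and 23.4 in EV. The SOX, GATA, RUNX, TBX and KLF list had 15 of 45 higher and 9 lower, with TBX3 at 1.67 ± 0.10, RUNX2 at 1.30 ± 0.12 and SOX4 at 1.25 ± 0.06 in the authors' deposited table. GATA2 had 112, 115 and 93.9 normalized reads in C134W, 188, 211 and 197 in WT and 75.5, 63.5 and 69.1 in EV. The ID proteins, dominant inhibitors of basic helix-loop-helix factors, divided: ID4 was at 1.42 ± 0.09, and ID1, ID2 and ID3 at -0.96 ± 0.12, -1.11 ± 0.14 and -1.02 ± 0.10 in the authors' deposited table. ETS factors divided too, with ETV1, ETV4 and ETV5 higher at 1.47 ± 0.20, 0.70 ± 0.09 and 0.61 ± 0.08 and ETS2 and FLI1 lower at -1.31 ± 0.08 and -1.10 ± 0.13 in the authors' deposited table. The progesterone receptor PGR had implied levels of 530 in C134W, 117 in WT and 150 in EV. Of the 23 forkhead factors tested, 4 were higher and 4 lower, FOXL2 among the lower.

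Several lists for protein production and turnover had more lower than higher members. In ribosome biogenesis 3 of 79 were higher and 41 (51.9%) lower, with a median of -0.24; EBNA1BP2 changed by -0.58 ± 0.06, PNO1 by -0.54 ± 0.08 and RRP12 by -0.52 ± 0.08 in the authors' deposited table. Proteasome genes had 2 of 49 higher and 20 lower (median -0.16), with the assembly factor PSMG1 at -0.48 ± 0.09 and the activator PSME4, a higher member, at 0.53 ± 0.07 in the authors' deposited table. Cytosolic chaperones had 7 of 83 higher and 31 lower (median -0.13), led by the small heat shock protein HSPB8 at -1.52 ± 0.13 in the authors' deposited table. Translation factors had 9 of 73 higher and 31 lower, with EIF5A2 at -1.13 ± 0.13 and the cap-binding EIF4E at -0.58 ± 0.10 in the authors' deposited table. Other lists of these functions did not share that lean: ubiquitin ligases and deubiquitinases had 67 of 301 higher and 49 lower, and aminoacyl tRNA synthetases 8 of 24 higher and 6 lower. Over all genes the share lower in C134W rose with abundance, to 45.6% above a mean of 2000. The abundance of the members was not set out list by list, so its part in these lower shares was not tested. Without TGF there were 1 of 79 higher and 26 lower for ribosome biogenesis, 0 of 49 and 19 for the proteasome and 0 of 79 and 27 for chaperones. Over all genes without TGF 10.9% were higher and 11.5% lower. Against EV the counts ran the other way, with 35 of 79, 25 of 49 and 33 of 83 higher and 4, 2 and 10 lower in C134W. Of all genes 25.6% were higher and 23.1% lower against EV. Respiratory chain genes had 1 of 93 higher and 22 lower, with a median of -0.07 that is as small as the shift between the 2 scalings of the libraries.

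Membrane organisers formed the list with the highest share of lower genes, 61.9%: of 42 tetraspanins and membrane-shaping genes 5 were higher and 26 lower, with a median of -0.30. Tetraspanins are proteins with a quartet of membrane spans that cluster integrins and other receptors. TSPAN12 had 35.7, 48.3 and 59.1 normalized reads in C134W, 108, 96.9 and 128 in WT and 33.9, 41.7 and 37.9 in EV, and TSPAN2 and TSPAN5 changed by -0.96 ± 0.09 and -0.67 ± 0.09 in the authors' deposited table. TSPAN18 was the main exception at 1.44 ± 0.09 in the authors' deposited table. The summed implied level of the list was 65150 in C134W, 83640 in WT and 64590 in EV, so that WT again stood above both other lines. Golgi trafficking genes had 10 of 94 higher and 31 lower. There the giant golgins GOLGB1 and GOLGA4 were higher at 0.98 ± 0.11 and 0.53 ± 0.10 and the retrieval receptor KDELR3 was lower at -0.54 ± 0.10 in the authors' deposited table.

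Carriers and metabolic enzymes showed both directions. Of sugar, monocarboxylate and organic ion carriers 3 of 29 were higher and 12 lower (median -0.23), including the nucleoside carrier SLC29A1 at -0.80 ± 0.07 and the lactate carrier SLC16A3 at -0.55 ± 0.08 in the authors' deposited table. Amino acid carriers had 7 of 29 higher and 8 lower: the cystine carrier SLC7A11 was at 0.58 ± 0.08 in the authors' deposited table, while SLC38A5, a carrier of glutamine, had 68.8, 77.1 and 76.5 normalized reads in C134W, 196, 198 and 181 in WT and 140, 138 and 137 in EV. Of the NRF2 and glutathione genes 9 of 51 were higher and 20 lower, with the peroxiredoxin PRDX6 at 0.82 ± 0.06 and the glutathione peroxidase GPX3 at -1.5 ± 0.14 in the authors' deposited table. Fatty acid synthesis had 5 of 22 higher and 9 lower. Serine, glycine and one-carbon metabolism had 10 of 34 higher and 8 lower, with PHGDH, the first enzyme of serine synthesis, at 0.49 ± 0.07 in the authors' deposited table. Glutamine, proline, asparagine and polyamine metabolism had 8 of 35 higher and 10 lower, with asparagine synthetase ASNS at 0.76 ± 0.06 in the authors' deposited table. Zinc, iron and copper handling had 7 of 41 higher and 11 lower, with changes from -1.39 to 2.04. Among the lower members the transferrin receptor TFRC, the iron regulatory protein ACO1 and the ferrireductase STEAP3 changed by -0.75 ± 0.07, -1.13 ± 0.07 and -1.39 ± 0.10 in the authors' deposited table. Complement genes had 7 of 21 higher and 5 lower. C1R, a protease of the first complement component, had 221, 266 and 220 normalized reads in C134W, 80.3, 87.3 and 53.5 in WT and 35.8, 26.0 and 15.6 in EV, whereas the complement shields CD59 and CD55 changed by -0.61 ± 0.06 and -0.45 ± 0.08 in the authors' deposited table.

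The metallothioneins, small cysteine-rich proteins that bind zinc and copper, were looked at as a family after their values were seen. MT2A had implied levels of 11570 in C134W, 4058 in WT and 1576 in EV, with a log2 change of 1.49 ± 0.07 in the authors' deposited table (adjusted p = 1.6e-91). MT1E had 2351 in C134W, 967 in WT and 419 in EV. MT1L had 74.7, 101 and 103 normalized reads in C134W, 19.2, 8.52 and 17.2 in WT and 1.92, 4.17 and 1.11 in EV, and MT1M had 22.4, 27.9 and 31.3 in C134W, 7.53, 5.33 and 9.54 in WT and 7.68, 7.29 and 1.11 in EV. MT1X changed by 0.33 ± 0.13 and MT1F, by 0.28 ± 0.23 with an adjusted p of 0.373, did not pass the test in the authors' deposited table. These genes are near-identical copies in 1 cluster on chromosome 16, so reads could be split between them and the value of a single member is uncertain. Metallothionein promoters carry metal response elements, which are bound by the factor MTF1. The 250 bases before the start of MT2A (RefSeq, GRCh38.p14, plus strand, chr16:56608334-56608583) are shown with the motif TGCGCNC or TGCACNC on either strand in capitals, 7 matches in all, in a window chosen because the gene was among the 10 largest gains in level.
MT2A: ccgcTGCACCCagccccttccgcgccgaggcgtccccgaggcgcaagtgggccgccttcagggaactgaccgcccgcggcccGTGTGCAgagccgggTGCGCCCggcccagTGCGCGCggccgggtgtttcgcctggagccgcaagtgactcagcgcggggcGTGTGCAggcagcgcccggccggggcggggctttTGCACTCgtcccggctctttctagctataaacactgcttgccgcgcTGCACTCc
Of all 27305 promoters of 300 bases in the RefSeq table, 29.3% held at least 1 match and 0.593% held 4 or more. A match is a description of letters and not a shown site.

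Promoter letters were also counted for the forkhead core GTAAACA and the SMAD box CAGACA, searched on both strands over 300 bases from 250 before to 50 after each start. GTAAACA was in 15 of 246 promoters (6.10%) of genes higher by over 1 log2 unit, in 1 of 146 (0.685%, GFRA1) of genes lower by over 1, in 232 of 10194 (2.28%) of all genes tested and in 3.41% of all promoters. CAGACA was in 30 of 246 (12.2%) of the higher, 36 of 146 (24.7%) of the lower, 11.98% of all tested and 16.8% of all promoters. The TEAD motif GGAATG was in 11.4% of the higher, 15.1% of the lower, 10.8% of all tested and 14.1% of all promoters, and the AP-1 motif TGACTCA in 5.69%, 5.48%, 2.94% and 4.92% of the same groups. The SMAD palindrome GTCTAGAC and the CArG box were found in 0.201% and 0.0366% of all promoters, too few to compare. The median GC content was 66.2% in the higher, 64.7% in the lower and 65.7% in all tested promoters. Examples are printed in the gene's sense from RefSeq (GRCh38.p14), 27 bases around GTAAACA or its reverse complement in capitals, for genes with this match among those higher by over 1, which were chosen for that match after their values were seen. They are JMY, an actin nucleator and p53 cofactor (chr5:79236087-79236113, plus strand, log2 change 2.40 in the authors' deposited table), GDF15, a stress-induced TGF-beta family ligand (chr19:18386052-18386078, plus strand, 1.74), MAML3, a Notch co-activator (chr4:140154197-140154223, minus strand, 1.55), TXNIP, the thioredoxin-interacting protein (chr1:145996687-145996713, minus strand, 1.05) and BCL2L11, the pro-apoptotic BIM (chr2:111120681-111120707, plus strand, 1.01).
JMY: cacgtgcccaTGTTTACgtccctcgtg
GDF15: gtcattggagTGTTTACtctgcaggca
MAML3: gccgctgccgTGTTTACtgagctcgcg
TXNIP: cgggctcctgGTAAACAaggaccgggc
BCL2L11: agttactccgGTAAACAcgccagggac
For the lower genes 3 windows around CAGACA or its reverse complement are shown: ANKRD1 (chr10:90921214-90921239, minus strand), TGFB2, a TGF-beta ligand (chr1:218345273-218345298, plus strand), and GFRA1 (chr10:116274716-116274741, minus strand).
ANKRD1: ttcagcttccCAGACActgagtctgg
TGFB2: ttgttgaaggCAGACAcgtggttcag
GFRA1: ggaggaggggTGTCTGatgagggcgt

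Histone genes had the lowest median of the 72 lists, -0.54, with 2 of 35 higher and 18 (51.4%) lower. The WT libraries differed strongly among themselves in many of these genes. Only 18 histone genes were tested against EV with TGF, and 17 in C134W against WT without TGF. Members such as HIST1H1B and HIST1H3C passed the limit on the mean through high reads in WT libraries 2 and 3. The median, the shares and the sums below thus partly follow from that limit. For the 21 histone genes with HIST symbols and a mean of 10 to 40, the summed normalized reads were 174, 174 and 158 in the C134W libraries, 194, 785 and 846 in the WT libraries and 155, 183 and 194 in the EV libraries. WT library 1 was at or just above the highest of the C134W and EV sums, while WT libraries 2 and 3 were several-fold above every other library. The ratio of C134W to WT was 0.277 with all WT libraries and 0.869 against WT library 1 alone. In 17 of the 21 genes both WT libraries 2 and 3 were over double WT library 1. Of the 13 genes among the 21 that were called lower, WT library 1 lay at or below the highest C134W library in 5. HIST1H1B, a linker histone made in S phase, had 4.27, 3.71 and 3.48 normalized reads in C134W, 6.69, 101 and 95.4 in WT and 0.64, 4.17 and 0 in EV. HIST1H3C had 3.20, 1.86 and 2.32 in C134W, 5.85, 30.9 and 30.5 in WT and 1.92, 1.04 and 2.23 in EV. Messages of such histones end in a stem-loop with no poly(A) tail.

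Other RNAs without a poly(A) tail differed between the WT libraries to unequal degrees. RN7SL2, a copy of the signal recognition particle RNA, had 1.60, 3.71 and 0 normalized reads in C134W, 5.85, 53.2 and 40.1 in WT and 0, 3.12 and 6.68 in EV. The 26 small nucleolar and Cajal body RNA genes summed to 420, 365 and 453 in C134W, 442, 612 and 657 in WT and 358, 385 and 358 in EV, a ratio of 0.723 of C134W to WT with all WT libraries and 0.933 against WT library 1 alone. Of these 26 genes, 2 were over double in both WT libraries 2 and 3. RN7SK, RNA28S5 and RPPH1, chosen after their values were seen, changed by -0.62 ± 0.23, -0.67 ± 0.26 and -0.55 ± 0.22 in the authors' deposited table, but their means were too high to decode by library. Replication-independent histone genes, whose messages carry a poly(A) tail, went both ways: the linker histones H1F0 and H1FX were higher in C134W, at 0.48 ± 0.07 and 0.46 ± 0.12 in the authors' deposited table. H2AFJ had 141, 155 and 82.3 normalized reads in C134W, 177, 179 and 162 in WT and 140, 129 and 150 in EV, so that all 3 WT libraries lay above C134W. The libraries were made from total RNA with the TruSeq RNA v2 kit, per the labels, and the part of library preparation in these differences was not tested. Without TGF 2 of 17 histone genes (11.8%) were higher and 3 (17.65%) lower, beside 10.9% and 11.5% of all genes.

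**Figure D4:**
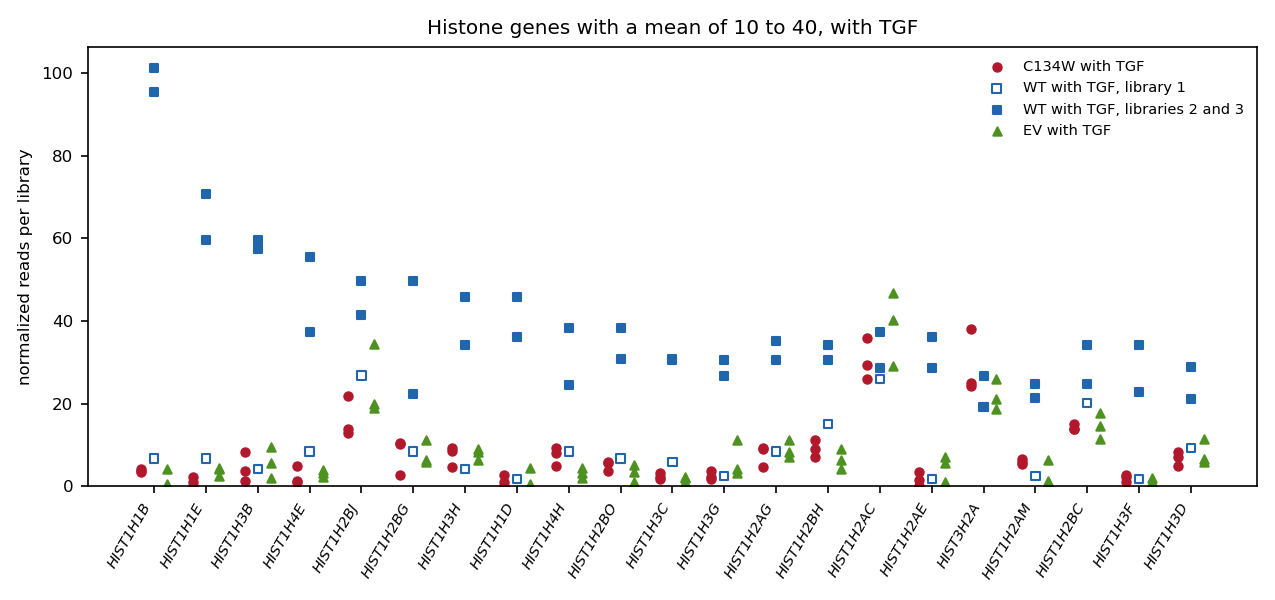
Normalized reads per library with TGF for the 21 histone genes with HIST symbols and a mean of 10 to 40, with red circles for C134W, open squares for WT library 1, filled squares for WT libraries 2 and 3, and green triangles for EV. In 17 genes both filled squares are over double the open square, which lies within the range of the C134W and EV points in 12 genes, above it in 7 and below it in 2.

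Among 1778 members with a mean of 10 to 40 that were decoded, the C134W and WT libraries did not overlap in 685 (38.5%). The call and the overlap use the same reads, so these counts are a description: 323 were called, and 316 of these did not overlap. The 7 called genes whose libraries overlapped were HIST1H2AG, HIST1H2BG, HIST1H3F, HIST1H3G, HIST1H4H, SNORA73A and RHOD. Among the 1455 not called, the libraries did not overlap in 369 (25.4%). Of the named genes of higher mean, HIST1H1C had 114, 117 and 119 normalized reads in C134W and 101, 182 and 221 in WT. HIST1H2BD and the fatty acid binding protein FABP5 had WT library 1 within the C134W range. ARSA overlapped through C134W library 3, with 162.7, 148.6 and 99.65 normalized reads in C134W and 106.2, 103.3 and 70.63 in WT.

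With the deposited tests, the contrast of C134W with WT called fewer genes without TGF. That order reversed against the empirical null given at the end. Most of the strongest genes kept their direction without TGF. The same contrast without TGF called 2793 of 12463 genes (22.4%) in the authors' deposited table, 1358 higher (10.9%) and 1435 lower (11.5%). With group sums set equal there, the 2766 calls split into 1668 higher and 1098 lower. Between called genes the direction mostly stayed: 947 genes were higher and 1090 lower in both, 23 were higher with TGF and lower without, and 44 lower with TGF and higher without. The difference between the 2 log2 changes, tested with a two-sided z test and Benjamini-Hochberg adjustment, passed for 1641 of 12507 genes (13.1%), 749 (5.99%) with the higher change with TGF and 892 (7.13%) with the lower. The deposited changes without TGF were pulled more strongly to 0 by the moderation, so the test was repeated with the moderation undone for genes with a mean of at least 100, where 1337 of 9276 (14.4%) passed, 522 (5.63%) higher and 815 (8.79%) lower. The difference passed for all 20 of the strongest higher genes as deposited, and with the moderation undone for the 8 of them in which it could be undone. It passed for 19 of the 20 strongest lower genes either way. Both sets were picked for their change with TGF, which is part of the tested difference, so these counts are only a description.

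Several genes differed between the lines with TGF and little or not at all without it. For FST, the activin-binding follistatin, the log2 change of C134W over WT was 2.04 ± 0.10 with TGF and -0.22 ± 0.09 without in the authors' deposited tables, a difference of 2.26 (adjusted p = 3.81e-59). For PGR it was 2.06 ± 0.13 with TGF and 0.18 ± 0.10 without, and for MAMLD1, a Mastermind-like co-activator, 1.92 ± 0.09 and 0.11 ± 0.11 in the authors' deposited tables. IGFBP3, which binds insulin-like growth factors, was lower in C134W with TGF at -1.24 ± 0.08 and higher without at 0.44 ± 0.07, and the GTPase RRAD did the same at -0.92 ± 0.16 and 0.77 ± 0.13 in the authors' deposited tables. For IGFBP3 and RRAD both opposite changes passed the test. EDN2 and CALB2, a calcium-binding calretinin, were called only with TGF, and the tested differences were -1.91 and -1.56.

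**Figure D5:**
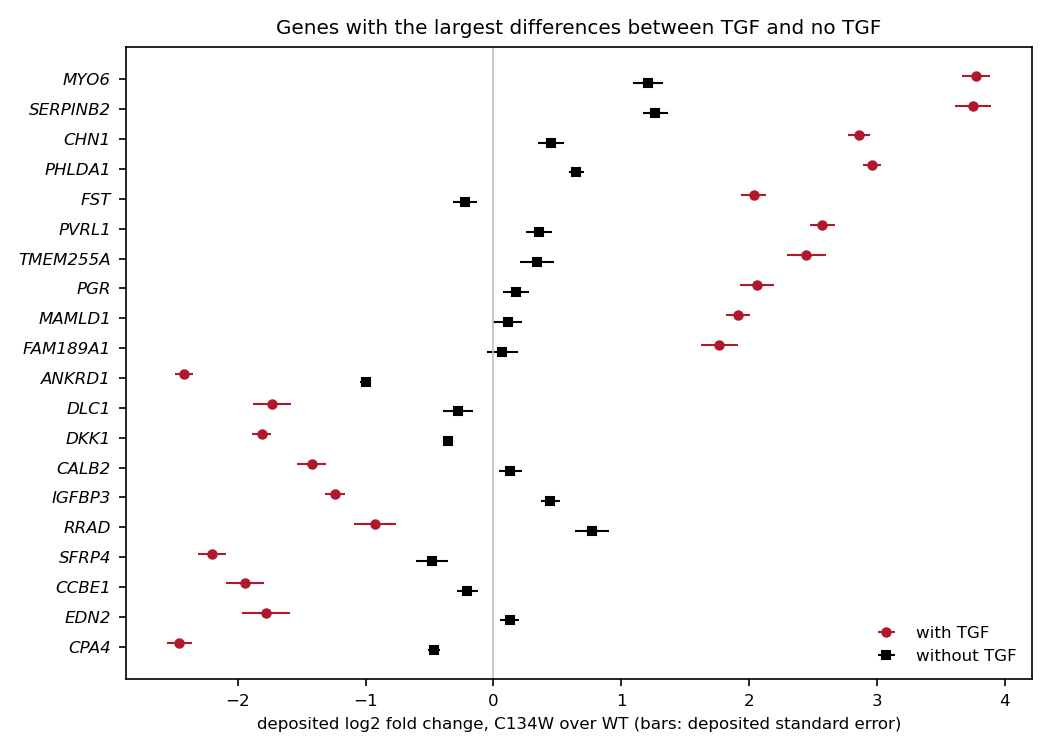
Log2 change of C134W over WT with TGF (red circles) and without TGF (black squares), each with its deposited standard error, for the 10 genes with the highest and the 10 with the lowest difference between the conditions among those with a mean of at least 100 in both tables. IGFBP3 and RRAD lie on opposite sides of 0 in the 2 conditions.

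Of the 20 strongest higher genes, 8 could be decoded without TGF, and in all 8 every C134W library lay above every WT library there. In 7 of them, all but MOXD1, every C134W library also lay above every EV library. Only genes with a mean up to 45 without TGF were decoded there. The share of all genes without overlap was not computed for the libraries without TGF, so these counts are only a description. ANK2 without TGF had 57.5, 59.7 and 66.0 normalized reads in C134W, 1.73, 9.93 and 4.93 in WT and 0, 1.78 and 0 in EV. RASGRF2 had 54.6, 63.9 and 68.2 in C134W, 6.92, 18.8 and 3.70 in WT and 0.864, 8.90 and 9.14 in EV, and GAD1 had 34.95, 40.9 and 31.9 in C134W, 8.65, 7.72 and 4.93 in WT and 7.78, 6.23 and 6.09 in EV. MOXD1 had 35.7, 29.3 and 44.0 in C134W, 12.98, 13.2 and 19.7 in WT and 57.1, 66.7 and 62.5 in EV. CYP19A1, given above, and DCLK1, at 0.19 with an adjusted p of 0.443 without TGF in the authors' deposited table, are strongly higher genes of lower mean that were not called there. All 20 of the strongest higher genes were also called higher without TGF, and 17 of the 20 strongest lower genes were called lower.

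List counts without TGF kept the same lean for several functions, in libraries that the contrast with TGF does not share. Over all genes there, 10.9% were higher and 11.5% lower. Chromatin remodelers had 35 of 118 (29.7%) higher and 5 lower, and histone methylation genes 29 of 92 (31.5%) higher and 4 lower. Cilium genes had 12 of 71 (16.9%) higher and 1 lower, and cohesin and SMC genes 9 of 30 (30%) higher and 0 lower. Over all genes the test of the difference passed higher in 5.99% and lower in 7.13%. In several lists the genes that passed mainly had a lower change of C134W over WT with TGF than without. The test of the difference passed higher in 3 and lower in 17 of 41 tetraspanin genes, in 2 and 11 of 22 fatty acid synthesis genes, in 0 and 10 of 94 Golgi trafficking genes, in 2 and 10 of 39 ADAM, cathepsin and kallikrein genes, in 0 and 8 of 28 sugar and monocarboxylate carriers and in 0 and 5 of 11 Eph and ephrin genes. Other lists leaned higher, among them synaptic vesicle and scaffold genes, with 7 higher and 2 lower of 26. The NFI, STAT, NF-kappaB, IRF and NFAT factors had 5 higher and 0 lower of 33. Among fatty acid genes the desaturase SCD and its regulator SREBF1 changed by 0.44 ± 0.05 and 0.67 ± 0.09 with TGF and by 1.01 and 1.06 without in the authors' deposited tables.

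Against EV with TGF, which uses the same C134W libraries, 6346 of 13006 genes (48.8%) were called in the authors' deposited table, 3336 higher (25.6%) and 3010 lower (23.1%). All 20 of the strongest genes higher in C134W than in WT were also higher than in EV.

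By position, chromosome medians of the log2 change lay between -0.04 on chromosome 5 and 0.04 on chromosome 19. Over 575 windows of 40 neighbouring genes, the lowest median was -0.43 at chr6:24667077-28095715, where 3 genes were higher and 17 lower. This window holds the large histone cluster, and its value without WT libraries 2 and 3 was not computed. The highest was 0.26 at chr19:47045909-48876058, with 13 genes higher and 9 lower.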

How the data were processed

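RNA of HGrC1 cells was sequenced in 6 groups of 3 libraries, prepared with the TruSeq RNA v2 kit per the labels. Reads were trimmed with Trimmomatic 0.36.0 and processed with Bowtie2, HTSeq 0.6.1 and DESeq2 on hg38, per the submitters' processing notes. Each table the authors deposited gives, for 1 pair of groups, a mean normalized count (a signal over 6 libraries), a moderated log2 fold change with its standard error, a Wald score, a p-value and an adjusted p-value. These deposited tests were used as they stand, at an adjusted p under 0.05 and a mean of at least 10. Since these tables hold no raw counts, no count model was fitted.

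From the tables, group levels were computed by undoing the moderation for genes with a mean of at least 50, and whole reads per library were solved from the mean, fold change and the size factors read off genes with 1 read. The 2 contrasts of C134W with WT, with and without TGF, share no library, so their difference was tested with a z test and Benjamini-Hochberg adjustment. Reads per library rest on this decoding, and the floor for CYP19A1 covers counting error only. The ± values are deposited standard errors or, where marked, SDs among libraries.

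The members and all lists were chosen with earlier results of these data known. The text names the 20 highest and 20 lowest genes with a mean of at least 100, the 10 highest and lowest with a mean of at least 2000, the 10 largest gains and losses in level, up to 4 called genes a direction in each of the 72 lists, and the 10 highest and lowest differences. Alternatives were another centring, an empirical null, a fold threshold of 0.5 on the log2 scale, an adjusted p under 0.01, other minimum means and the moderation undone. Calculations used Python 3.11.15, numpy 2.4.6, pandas 2.3.3, scipy 1.17.1 and matplotlib 3.10.9, and were tested on simulated data. Promoters are RefSeq sequences of GRCh38.p14. A few genes and 1 of the lists are not reported here.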

Additional observations from a re-analysis of the deposited data

Results flagged for a closer look

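The log2 change of C134W over WT differed with and without TGF in 20 genes named for that difference, by the z test with Benjamini-Hochberg adjustment over all genes. Among them 10 had a higher change with TGF. The difference was 2.57 for MYO6 (adjusted p = 2.19e-55), 2.48 for SERPINB2 (1.03e-43), 2.41 for CHN1 (1.8e-71), 2.32 for PHLDA1 (5.33e-142) and 2.26 for FST (3.81e-59). It was 2.22 for PVRL1 (1.08e-52), 2.11 for TMEM255A (3.07e-23), 1.88 for PGR (2.73e-27), 1.80 for MAMLD1 (8.74e-32) and 1.70 for FAM189A1 (2.43e-17).

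The other 10 had a lower change with TGF. The difference was -1.99 for CPA4 (adjusted p = 1.24e-71), -1.91 for EDN2 (5.61e-19), -1.74 for CCBE1 (5.94e-22), -1.72 for SFRP4 (1.88e-22) and -1.70 for RRAD (8.33e-14). It was -1.68 for IGFBP3 (1.08e-52), -1.56 for CALB2 (1.54e-24), -1.46 for DKK1 (3.08e-67), -1.46 for DLC1 (9.45e-13) and -1.42 for ANKRD1 (6.9e-69). All 20 differences kept their direction and passed the test with the moderation undone.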

How the results depend on the processing

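The number of genes called moved by over 1.5 times under an empirical null and under a fold threshold. Against an empirical null the calls were 560 with TGF (294 higher, 266 lower) and 589 without TGF (309 and 280). The contrast with WT thus no longer called more genes with TGF than without. The calls were 924 against EV (523 and 401) and 553 for the difference between conditions (260 and 293). Tested against a log2 change of 0.5, the calls were 577 with TGF (359 and 218), 82 without TGF (48 and 34) and 1475 against EV (803 and 672). The cause was not tested. Of 592 named changes, 384 missed the threshold under the empirical null, 49 at an adjusted p under 0.01 and 24 with summed levels set equal, and none changed sign. The count of higher members moved by over 1.5 times in 72 of 72 lists under the empirical null and in 11 with summed levels set equal, and the count of lower members in 70 and 19. Leaving out WT libraries 2 and 3, chosen after seeing the data, moved the summed histone ratio to 0.869 and the small nucleolar RNA ratio to 0.933. No paired analysis was possible because the tables hold no column per library that carries a replicate number. For the same reason the deposited tests could not be repeated without each replicate. Genes with means over 180 have no values per library, so a single library that decides one of them cannot be seen.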
